A study of Mus musculus with 8 samples.

Results

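The 7 genes Gabra2, Gabra3, Gabra4, Gabra5, Gabrb1, Gabrb2 and Gabrd encode subunits of the GABA-A receptor, and they were taken by gene symbol from the 19505 genes that the array annotation names. Each of the 7 had 1 row in the deposited table, so no choice between rows was needed. The set leaves out Gabra6, the subunit of cerebellar granule cells. The expression values come from RNA of the mouse brain (male ICR mice, an outbred stock, 8 weeks old at purchase and acclimatised for 1 week). Limbic system is the tissue in one label field, hippocampus in another.

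Each of 4 groups had 2 Clariom S arrays, and treatment lasted 7 days in every group. The first group had water and no tail suspension test (TST), a behavioural stressor in which a mouse is held up by the tail and the time it spends motionless is taken. The second had water and the TST. The third had rosemary extract (RE) at 10 mg/kg and the TST. The fourth had RE and the TST at a high dose, for which the titles give 100 mg/kg and the source names 50 mg/kg. The groups here follow the titles, although a further label names the unstressed water group a positive control and the suspended one a negative control. Each group had 7 mice according to the treatment text. Whether 1 RNA sample stands for 1 mouse or for a pool is not stated, so the spread behind each p-value is that between samples and may be technical.

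GABA-A receptors are chloride channels made of 5 subunits around a pore, and they carry most fast inhibition in the brain. A typical receptor has alpha and beta subunits, which form the GABA binding sites, and a gamma or a delta subunit. The alpha subunit sets much of the pharmacology and the place in the cell: receptors with alpha 2 or alpha 3 sit mainly at synapses, receptors with alpha 5 mainly outside them on hippocampal pyramidal cells, and receptors with alpha 4 and delta carry tonic inhibition in the dentate gyrus, thalamus and striatum. Benzodiazepines act on receptors that hold alpha 2, alpha 3 or alpha 5 with a gamma subunit and not on those with alpha 4.

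Most of these genes lie in clusters in the genome, as the RefSeq gene table of GRCm38.p6 shows. On chromosome 5 the order of coding genes is Gabrg1, Gabra2, Cox7b2, Gabra4 and Gabrb1, and the annotated spans of Gabra4 and Gabrb1 overlap. On chromosome 7 Gabra5 follows Gabrg3, and on chromosome 11 Gabrb2 follows Gabra6. Gabra3 lies on chromosome X beside Gabrq, and Gabrd lies on chromosome 4 between Prkcz and Cfap74, away from the rho genes Gabrr1 and Gabrr2 of that chromosome. Gene coordinates are not printed, since no source here names the build of the array annotation.

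RefSeq promoter windows were matched for 6 of the 7 genes. The 250 bases upstream of an annotated start are shown for 4 genes on which the results turn, the 3 alpha subunit genes with the lowest values relative to their own mean and Gabrb2, which did not share that pattern. Capitals mark every match, on either strand, to a TATA box, an Sp1 GC box, a cAMP response element or an EGR factor motif. The windows are chrX:72656920-72657169 on the minus strand for Gabra3, chr5:71658309-71658558 on the minus strand for Gabra4, chr7:57510060-57510309 on the minus strand for Gabra5 and chr11:42420190-42420439 on the plus strand for Gabrb2, all in GRCm38.p6. Gabra3 has another annotated window, which overlaps the one shown and holds the same TATAAA site, at position -235 from its own start. The window further upstream is shown. Gabrb2 has 3 windows in the RefSeq table, of which the one furthest upstream is shown; the other two held no match to the motifs and had a GC content of 54.0% and 36.8%. The windows of Gabra5 and Gabrb2 lie inside the annotated span of their gene, and that of Gabra4 lies inside the span of Gabrb1.
Gabra3: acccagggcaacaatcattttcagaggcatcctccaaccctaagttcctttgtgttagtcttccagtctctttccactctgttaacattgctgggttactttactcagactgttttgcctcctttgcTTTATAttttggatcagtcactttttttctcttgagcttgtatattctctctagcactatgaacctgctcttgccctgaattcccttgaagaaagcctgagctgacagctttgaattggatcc
Gabra4: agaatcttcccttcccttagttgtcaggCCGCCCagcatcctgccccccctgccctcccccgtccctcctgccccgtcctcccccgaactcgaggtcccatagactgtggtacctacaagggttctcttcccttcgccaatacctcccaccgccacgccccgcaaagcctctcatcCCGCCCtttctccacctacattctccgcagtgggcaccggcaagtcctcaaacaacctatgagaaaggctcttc
Gabra5: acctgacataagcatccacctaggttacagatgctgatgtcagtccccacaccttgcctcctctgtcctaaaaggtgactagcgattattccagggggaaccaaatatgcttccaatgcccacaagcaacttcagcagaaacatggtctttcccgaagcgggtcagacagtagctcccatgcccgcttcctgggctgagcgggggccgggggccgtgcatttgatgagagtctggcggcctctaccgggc
Gabrb2: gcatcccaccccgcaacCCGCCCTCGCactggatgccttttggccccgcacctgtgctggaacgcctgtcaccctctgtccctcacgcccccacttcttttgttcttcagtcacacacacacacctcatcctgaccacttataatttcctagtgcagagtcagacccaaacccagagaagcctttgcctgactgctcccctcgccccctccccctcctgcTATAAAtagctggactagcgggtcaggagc
The TATA box was searched as TATAAA, which occurred in 12.4% of all 32851 windows of this length. The Sp1 GC box was searched as GGGCGG, found in 32.7%. The cAMP response element, TGACGTCA, was found in 1.55% of windows, and the EGR motif, GCGNGGGCG, in 4.7%. In the Gabrb2 window TATAAA lay at position -30 from the start, and 1 run of capitals near its 5′ end is a match to both GGGCGG and GCGNGGGCG, which overlap there. The Gabra3 window held TATAAA on the opposite strand, at position -123. Gabra4 had 2 matches to GGGCGG and no match to the other motifs, and Gabra5 had none to any of the 4. The GC content was 42.4% for Gabra3, 61.2% for Gabra4, 56.4% for Gabra5 and 58.8% for Gabrb2, against a median of 52.4% over all windows. The measured values are RNA levels and do not bear on binding at these sites.

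The second replicate of water with TST differed most from the other arrays and is called the divergent array from here on. Its correlations with the other arrays across rows lay between 0.967 and 0.978, against 0.983 to 0.993 among the other 7. Markers of cerebellar granule cells were at their highest there in 16 of 17 genes, with a list mean 3.60 above the 8-array mean on the log2 scale. Water without TST replicate 1 was also high in that list, at 1.90, and the other 6 arrays lay between -1.09 and -0.53. Forebrain excitatory neuron markers, used to check the labelled tissue, were above the highest array median (7.51) on all arrays in 6 of 11 genes. They were above it on the 7 arrays other than the divergent one in 9 of 11 and on the divergent array in 7. The cortical gene Tbr1 was between 9.25 and 13.65, while Emx1 was between 6.70 and 7.52, and 10 of 11 were at their lowest on water with TST replicate 2, where the list mean was -2.10. In RNA from whole tissue, fewer cells of a type and less RNA per cell cannot be told apart.

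The plot of the 7 genes by array gives each deposited log2 value. Values of different genes come from different probes, so each gene is compared only with itself across arrays.

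**Figure D1:**
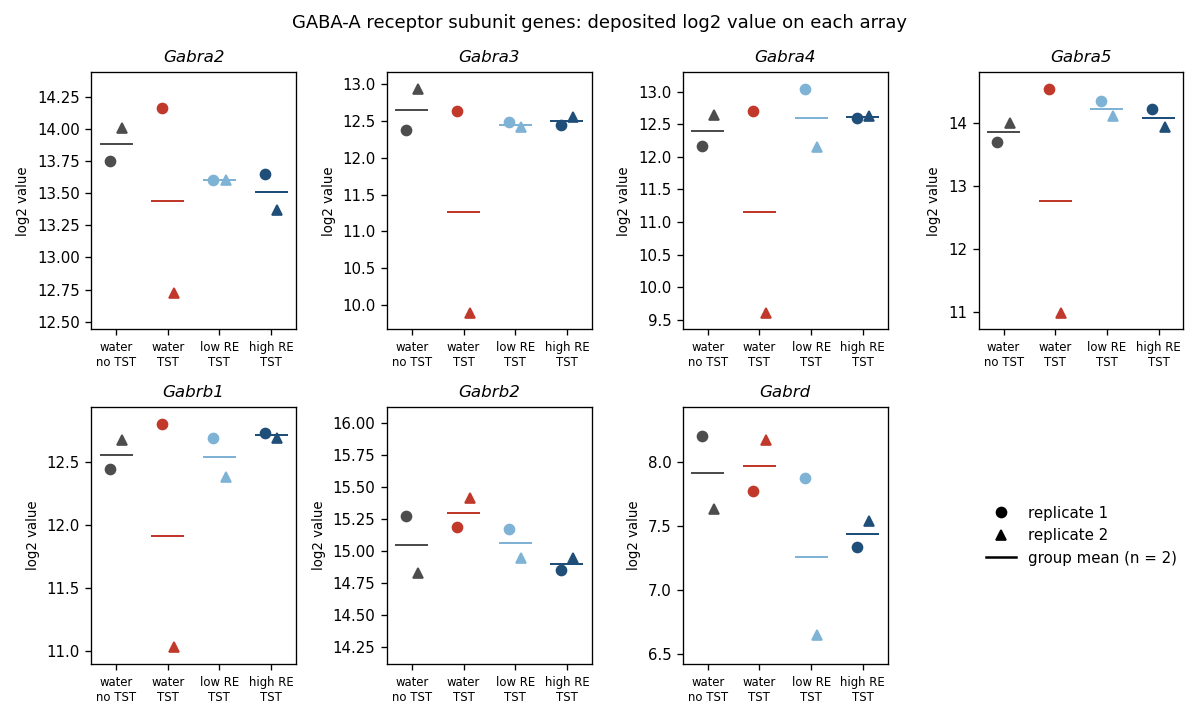
Deposited log2 value (y axis, scaled separately for each gene) of the 7 subunit genes in the 4 groups (x axis); circles are replicate 1, triangles replicate 2 and lines the group mean of 2 arrays. Gabra2, Gabra3, Gabra4, Gabra5 and Gabrb1 have their lowest value on water with TST replicate 2, while Gabrb2 has its highest there (15.41) and Gabrd is at 8.17, within its range on the other arrays.

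Among the alpha subunits of synaptic receptors, Gabra2 was at 13.75 and 14.01 in water without TST, 14.16 and 12.72 in water with TST, 13.60 and 13.60 with low-dose RE, and 13.65 and 13.37 with high-dose RE. Its highest and its lowest value were the 2 arrays of water with TST. Both RE groups lay below both arrays of water without TST. Gabra3, the alpha subunit common in monoaminergic nuclei, the reticular thalamus and deep cortical layers, was at 12.37 and 12.93, then 12.64 and 9.90, then 12.48 and 12.42, and last 12.44 and 12.55, in the same order of groups. The other 7 arrays lay within 0.56 of each other, and water with TST replicate 2 lay further down, a log2 difference of -2.47 from the lowest of them.

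Gabra5, which forms extrasynaptic receptors on hippocampal pyramidal cells, was at 13.70 and 14.00 in water without TST and at 14.53 and 10.99 in water with TST. It was at 14.34 and 14.10 with low-dose RE and at 14.21 and 13.93 with high-dose RE. The 2 arrays of water with TST differed by 3.54, and only 0.198% of all rows (44 of 22206) were as far or further down on replicate 2 against replicate 1. Gabra4, the partner of delta in forebrain tonic receptors, was at 12.17 and 12.64, then 12.70 and 9.61, then 13.04 and 12.15, then 12.60 and 12.63. Its value on water with TST replicate 2 differed by -2.54 from the lowest of the other 7, and the low-dose pair was the next widest, 0.89 apart.

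Gabrd, the delta subunit itself, did not follow Gabra4. It was at 8.20 and 7.63 in water without TST, 7.77 and 8.17 in water with TST, 7.87 and 6.65 with low-dose RE, and 7.34 and 7.54 with high-dose RE. The lowest value was low-dose RE replicate 2, and the highest values were the 2 arrays rich in cerebellar markers. These values lie around the array medians of 7.45 to 7.51, and no detection call comes with them. In fits without low-dose RE replicate 1, the low dose rests on the value of 6.65 alone. Delta is also known from cerebellar granule cells, where it pairs with alpha 6 in place of alpha 4.

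Of the beta subunits, Gabrb1 was at 12.44 and 12.67, 12.80 and 11.03, 12.69 and 12.38, and 12.73 and 12.69 in the 4 groups in that order. Without water with TST replicate 2 its values covered a range of 0.42, and that array differed by -1.35 from the lowest of them. Gabrb2, a widely expressed beta subunit, was at 15.27 and 14.83, 15.19 and 15.41, 15.17 and 14.95, and 14.85 and 14.95. It had the narrowest range of the 7 over the 8 arrays, at 0.58, and its highest arrays were those with the most cerebellar marker signal. The name forebrain subunits therefore holds unevenly on these arrays, since Gabrb2 and Gabrd were not low where forebrain markers were.

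Set side by side, 5 of the 7 genes were lowest on water with TST replicate 2, as were 21.0% of all rows (4655 of 22206). Relative to its own mean, Gabra5 was at -2.74 there, Gabra4 at -2.58, Gabra3 at -2.32, Gabrb1 at -1.40 and Gabra2 at -0.89. Gabrb2 was at 0.33 and Gabrd at 0.52. The other array rich in cerebellar markers, water without TST replicate 1, was the lowest of the other 7 for Gabra3 (12.37) and Gabra5 (13.70), and low-dose RE replicate 2 alone was lower among them for Gabra4 (12.15) and Gabrb1 (12.38). Its forebrain list mean was -0.01.

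**Figure D2:**
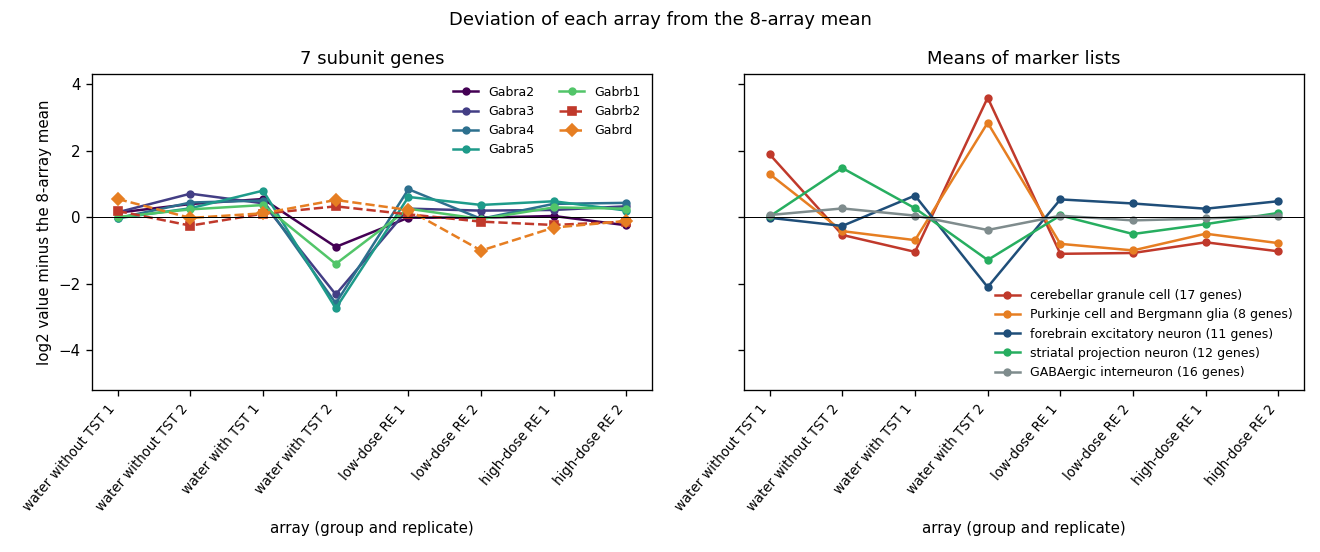
Left, log2 value minus the 8-array mean (y axis) for each of the 7 subunit genes on each array (x axis); right, the same for the mean of 5 marker lists. On water with TST replicate 2 the cerebellar granule cell list is at 3.60 and the forebrain excitatory list at -2.10, while Gabra5 is at -2.74 and Gabrb2 at 0.33; lines only join the points of 1 gene or list.

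The balance between subunits within an array is free of any constant added to all values of an array. Gabra5 minus Gabrb2, centred on its 8-array mean, was -3.07 on water with TST replicate 2 and between -0.22 and 0.71 on the other 7. Gabra4 minus Gabrb2 was -2.92 there and between -0.22 and 0.76 on the rest. Gabrd minus Gabrb2 was 0.19 there and lowest, at -0.87, on low-dose RE replicate 2. The lowest of the other 7 for Gabra4, Gabra5, Gabrb1 and Gabra3 minus Gabrb2 was water without TST replicate 1 in each case.

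The TST comparison asked what suspension changed in mice given water. Of the 7 genes, 0 passed the study's threshold (unadjusted p under 0.05 in limma and a fold above 1.2, or 0.263 as a log2 difference), against 2.55% of all rows. The number with an unadjusted p under 0.05 was 0 by limma and 0 by the one-way analysis of variance that the study's methods name. Gabra3 was at -1.38 (SE 0.718, 95% interval -3.03 to 0.27), Gabra4 at -1.25 (SE 0.825), Gabra5 at -1.09 (SE 0.901), Gabrb1 at -0.64 (SE 0.491) and Gabra2 at -0.44 (SE 0.421). Gabrb2 was at 0.25 (SE 0.248) and Gabrd at 0.055 (SE 0.406). The median of the 7 was -0.64, beside 0.01 over all named genes. None of the 7 had both arrays of a group on one side of the other group, while 27.5% of all rows did.

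Leaving out the divergent array (water with TST replicate 2) turned the picture. The median of the 7 became 0.245, with Gabra5 at 0.68 (SE 0.291), Gabra4 at 0.295 (SE 0.397), Gabra2 at 0.28 (SE 0.277), Gabrb1 at 0.245 (SE 0.278) and Gabra3 at -0.01 (SE 0.307). Gabra5 passed the study's threshold in that fit, where 3.29% of rows did, and its limma adjusted p was 0.998. Gabra5 was at 0.53 (SE 0.342) and did not pass where the unstressed array rich in cerebellar markers was left out too (2.72% of rows passed). In the fit that instead left out replicate 1 of water with TST, Gabra2, Gabra3, Gabra4, Gabra5 and Gabrb1 passed, between -2.86 and -1.16, as did 16.7% of all rows. Of these, Gabra3, Gabra4, Gabra5 and Gabrb1 also had a limma adjusted p under 0.05, as had 2.31% of rows; with all 8 arrays 0 rows had. The TST difference of these 5 genes thus depended on which of the 2 arrays stood for the group. The part of the marker differences in these values was not tested.

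Low-dose RE was compared with water, both with TST, to ask which genes the extract moved under the stressor. Again 0 of 7 passed, against 3.54% of rows. This comparison shares the arrays of water with TST with the one before, and the 5 genes low on the divergent array had positive differences. Gabra5 was at 1.46 (SE 0.901), Gabra4 at 1.44 (SE 0.825), Gabra3 at 1.18 (SE 0.718), Gabrb1 at 0.62 (SE 0.491) and Gabra2 at 0.16 (SE 0.421). Gabrd was at -0.71 (SE 0.406, 95% interval -1.64 to 0.22) and Gabrb2 at -0.24 (SE 0.248). Both low-dose arrays of Gabrb2 lay below both arrays of water with TST, which held for 11.9% of all rows in that direction. With the divergent array left out all 7 were negative, with a median of -0.265, and 0 passed, against 3.49% of rows. With the unstressed array rich in cerebellar markers left out as well it was also 0, against 3.04% of rows. Where only the divergent array stood for water with TST, 5 of 7 passed, against 17.0% of rows. Without low-dose RE replicate 1, Gabrd passed at -1.32, as did 7.76% of rows. Without the divergent array, Gabra2 was at -0.56 (SE 0.277) and Gabra5 at -0.31 (SE 0.291).

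High-dose RE against water, both with TST, gave 0 of 7 past the threshold, against 3.17% of rows. Gabra4 was at 1.46 (SE 0.825), Gabra5 at 1.31 (SE 0.901), Gabra3 at 1.225 (SE 0.718), Gabrb1 at 0.795 (SE 0.491) and Gabra2 at 0.07 (SE 0.421). Gabrb2 was at -0.40 (SE 0.248) and Gabrd at -0.53 (SE 0.406), and both had their high-dose arrays below both arrays of water with TST, as had 15.2% of rows. Without the divergent array the median was -0.29 and all 7 were negative. Gabra2 was then past the study's threshold at -0.65 (SE 0.277), where 3.09% of rows were. Its limma adjusted p was 0.998, and it did not pass with the unstressed array rich in cerebellar markers left out as well (-0.65, SE 0.285, with 2.81% of rows passing). With the divergent array alone standing for water with TST, 5 of 7 passed, as did 17.0% of rows.

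**Figure D3:**
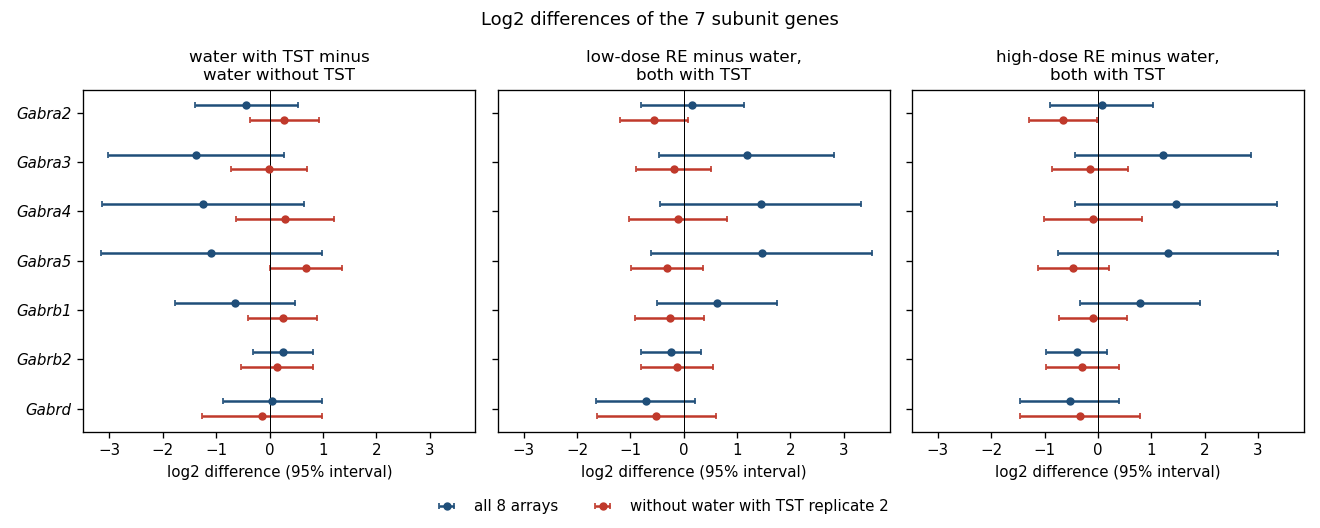
Log2 difference (x axis) with its 95% interval from limma for each of the 7 genes (y axis) in 3 comparisons, from all 8 arrays (blue) and without water with TST replicate 2 (red). With all 8 arrays every interval includes 0; the red points of Gabra3, Gabra4, Gabra5 and Gabrb1 lie near 0 or on the other side of it from the blue ones, and those of Gabrb2 move little.

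High against low dose used neither water group. Of the 7, 0 passed, against 1.91% of rows, and the median was 0.02. Groups overlapped for all 7, while 26.6% of rows did not overlap. Every difference lay within its SE: Gabra3 was at 0.045 (SE 0.718, 95% interval -1.60 to 1.69), Gabra4 at 0.02 (SE 0.825), Gabra5 at -0.15 (SE 0.901) and Gabrd at 0.18 (SE 0.406). The interval of Gabrb2, the narrowest, ran from -0.73 to 0.41 around -0.16. These intervals, which share their spread with the divergent pair of water with TST, leave room for differences of more than 1.2-fold in either direction.

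The last comparisons set RE with TST against unstressed water. With low-dose RE 0 of 7 passed (3.15% of rows did), and Gabra2 was at -0.28 (SE 0.421), Gabra5 at 0.37 (SE 0.901), Gabrb1 at -0.02 (SE 0.491) and Gabrd at -0.655 (SE 0.406). Gabrd passed at -1.265 without low-dose RE replicate 1, as did 6.9% of rows. With high-dose RE 0 of 7 passed (1.97% of rows did), and Gabra2 was at -0.37 (SE 0.421), Gabra5 at 0.22 (SE 0.901), Gabrb1 at 0.155 (SE 0.491) and Gabrd at -0.475 (SE 0.406). Gabra2 was the gene whose groups did not overlap in both of these comparisons in the same direction, lower with either dose. In the low-dose comparison 13.6% of rows did not overlap in that direction, and 16.2% in the high-dose one. Gabrd also did not overlap and was lower with the high dose. In the higher direction, Gabra5 did not overlap with the low dose, as 17.3% of rows did not, and Gabrb1 with the high dose, as 19.1% did not. A moderated F-test over the 4 groups found 0 of 7 at an unadjusted p under 0.05, against 1.82% of rows, and Gabra3 had the lowest p of the 7, at 0.268 (limma).

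Of the other GABA-A receptor subunits, 9 genes were analysed. Gabra6 was at 14.31 and 8.42, 5.40 and 16.37, 5.48 and 4.69, and 7.64 and 5.14 in the 4 groups in order. Its TST difference was -0.48 (SE 3.13), the widest error of any subunit, and without the divergent array it passed at -5.965 (SE 1.986). Gabrg3, a gamma subunit and the neighbour of Gabra5, followed the 5 alpha and beta genes: it was at 10.61 and 11.54, 10.99 and 8.75, 11.24 and 10.88, and 11.33 and 11.14, with its low value on the divergent array (TST difference -1.205, SE 0.639).

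Of the 9, 3 fell with TST at the study's threshold, which 1.26% of rows passed in that direction. Gabrg1, a gamma subunit with high levels in hypothalamus, amygdala and glia and the neighbour of Gabra2, was at 10.22 and 11.12 without TST and at 9.95 and 9.55 with it (-0.92, SE 0.379). Once the divergent array was left out it no longer passed (-0.72, SE 0.451), and in the fit without both arrays rich in cerebellar markers it passed again (-1.17, SE 0.446). It also passed against unstressed water with low-dose (-1.11, SE 0.379) and high-dose RE (-1.075, SE 0.379). Its highest value, 11.12, was water without TST replicate 2, the array where hypothalamic markers were highest, at 0.91 above their 8-array mean against 0.11 or less on the other arrays. Striatal projection neuron markers were at 1.48 on that array, against 0.27 or less on the others. The part of either list in the Gabrg1 difference was not tested. Gabrp, the pi subunit of peripheral tissues, was at 5.27 and 4.83 without TST, 4.25 and 4.29 with it, and between 4.80 and 5.34 with RE (TST -0.78, SE 0.270, low dose 0.80, high dose 0.685, all past the threshold). Without the divergent array Gabrp still passed for TST (-0.80, SE 0.330) and low dose but not for high dose (0.705, SE 0.330), and without both arrays rich in cerebellar markers it no longer passed for TST (-0.58, SE 0.374). Gabrr1, a rho subunit of the retina, was at 6.20 and 6.46 and then 5.81 and 5.72 (-0.565, SE 0.240), and it did not pass without the divergent array (-0.52, SE 0.290). The values of Gabrp were below the array medians of 7.45 to 7.51, as were those of Gabrr1, and no detection call comes with them.

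The theta and epsilon genes, which lie on either side of Gabra3 on chromosome X, did not share its pattern. Gabrq was at 7.35 and 8.57, 6.82 and 8.34, 7.64 and 7.30, and 7.71 and 6.59, and passed in no comparison with all 8 arrays. Without both arrays rich in cerebellar markers, its values left for the TST comparison were 8.57 without TST and 6.82 with it. In that fit 7 of the 9 other subunits were lower with TST (median -0.65), as were 9694 of 19505 named genes. With all 8 arrays 7 of the 9 were also lower (median -0.48). Gabre was at 6.10 and 7.40, 5.99 and 6.77, 5.22 and 5.57, and 6.49 and 6.70. It was higher with the high than with the low dose (1.20, SE 0.438) and lower with the low dose than in unstressed water (-1.355, SE 0.438), both past the threshold. All values of Gabre were below the array medians of 7.45 to 7.51, with no detection call. Of the rho genes, Gabrr2 (0.29, SE 0.270) and Gabrr3 (0.10, SE 0.339) did not pass for TST.

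**Figure D4:**
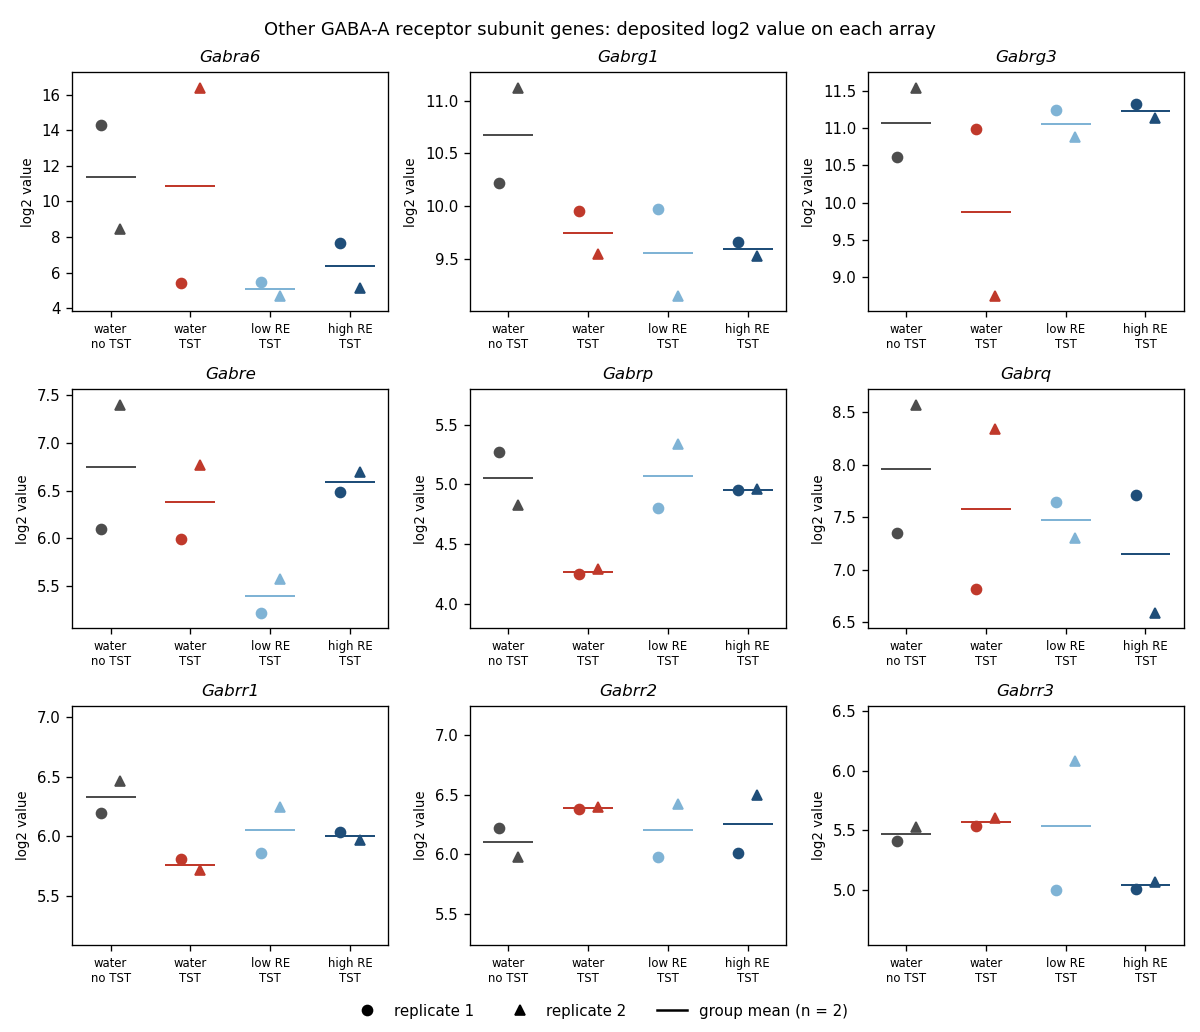
Deposited log2 value (y axis, scaled separately for each gene) of the 9 other GABA-A receptor subunit genes in the 4 groups (x axis); circles are replicate 1, triangles replicate 2 and lines the group mean of 2 arrays. Gabra6 is high on water without TST replicate 1 (14.31) and water with TST replicate 2 (16.37), and Gabrg3 is low on the latter (8.75).

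The rest of the pathway was described by lists, whose counts past the threshold are read against the shares of all rows given above. Of all 19505 named genes, 9408 were lower and 9969 higher with TST. Without the divergent array 9782 were lower and 9601 higher. Genes that make, release and remove GABA were lower with TST in 8 of 9 (median -0.095), and 1 passed: Gad2, one of the enzymes that make GABA, at -0.77 (SE 0.297), with 12.73 and 13.47 without TST and 12.18 and 12.48 with it. Without the divergent array, 9 of 9 genes of this list were lower (median -0.435) and 3 passed, among them Gad2 at -0.92 (SE 0.353). Markers of striatal projection neurons, which are GABAergic, were lower with TST in 12 of 12 genes (median -1.32, 3 past the threshold). GABAergic interneuron markers were lower in 13 of 16 genes (median -0.395) and hypothalamic markers in 11 of 14 (median -0.24). The means of these lists and Gad2 were all highest on water without TST replicate 2. The part of these markers in the difference was not tested. Gad1, the other such enzyme, was between 11.48 and 11.92 on all arrays. Of 20 genes that assemble, move and anchor the receptor, 0 passed for TST, with 12 higher and 8 lower (median 0.045). Slitrk3, an adhesion protein of inhibitory synapses, was at -0.735 (SE 0.664), and Shisa7, an auxiliary subunit of the receptor, at -0.605 (SE 0.674). Both were lowest on the divergent array, at 9.02 and 7.93. Without it, Slitrk3 was at 0.495 (SE 0.338) and Shisa7 at 0.69 (SE 0.271), values that rest on water with TST replicate 1 alone. The scaffold gene Gphn was highest on the divergent array, at 13.26, against 12.39 to 12.81 on the other arrays.

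Chloride transport genes, with the carbonic anhydrases, were higher with TST in 9 of 9 (median 0.405) and in 7 of 9 without the divergent array, and 1 passed, the chloride channel gene Clcn2 at 0.755 (SE 0.261), with 7.06 and 7.26 without TST and 8.03 and 7.80 with it. Clcn2 was also past the threshold against unstressed water with low-dose (0.88, SE 0.261) and high-dose RE (0.905, SE 0.261). These comparisons share the unstressed arrays. In the fit without both arrays rich in cerebellar markers Clcn2 did not pass for TST (0.77, SE 0.379) or for low dose against unstressed water (0.78, SE 0.328). Slc12a5, the transporter that keeps chloride low in neurons, passed with the low dose against unstressed water (0.595, SE 0.238). Among 5 genes of the GABA-B receptor 0 passed in any comparison, and Kctd16, one of its auxiliary subunits, was at -1.0 (SE 0.889) for TST and Kctd8, another, at 0.51 (SE 0.807). Without the divergent array both turned, to 0.715 (SE 0.348) and -0.955 (SE 0.451). Of 5 glycine receptor subunits, the related chloride channels, 1 fell with TST, Glra3 at -1.475 (SE 0.516). It had its lowest value, 8.91, on the divergent array, and without that array it did not pass (-0.65, SE 0.393). Of 8 genes listed for neurosteroid synthesis, 0 passed for TST. Steroid levels were not measured, and the genes of this list need not all raise them. Akr1c18 passed with the low dose against water (1.285, SE 0.480) and had its lowest value, 5.42, on the divergent array, without which it did not pass (0.43, SE 0.282). Star was lower with the high than with the low dose (-0.665, SE 0.217) and passed there. Its values, from 4.45 to 5.13, were all below the array medians of 7.45 to 7.51, with no detection call. Those of Akr1c18 ran from 5.42 to 7.58. No other gene of these pathway lists passed in any of the 6 comparisons with all 8 arrays.

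Genes with a pattern like the members were ranked by Pearson r over the 8 arrays with the mean of the 7 centred genes, among 9769 named genes with a mean above the median of all rows. The first 10 were Fgf13 (r 0.997), which binds sodium channels, Celf2 (0.993), Pld3 (0.991), Plcb1 (0.991), Slc25a14 (0.990), Mpv17l (0.990), Ppp2r5a (0.988), the active zone gene Erc2 (0.988), the activity-regulated kinase gene Plk2 (0.987) and the thyroid hormone receptor gene Thra (0.987). Fgf13 was at 6.52 on the divergent array and between 9.54 and 10.74 on the other 7. These r are a description, since all 10 genes share the low value of that array and the same 8 libraries. Ranked over the other 7 arrays, the first 10 were different genes, 0 of 10 shared, led by Yaf2, Zfp810 and Mertk.

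Ranked gene by gene, the closest to Gabra5 over 8 arrays was the calcium pump gene Atp2b1 (r 0.998), which stayed among the first 3 without the divergent array (0.976). For Gabra4 they were the potassium channel gene Kcnj4 (0.994), Slitrk3 and Neto1 (both 0.992), for Gabra3 Pnma2 (0.999), Npas2 (0.996) and Nexmif (0.994), for Gabrb1 Kctd13 (0.996), Arhgap42 (0.993) and Pde2a (0.992), and for Gabra2 Plaa, Nap1l1 (both 0.959) and Dync2h1 (0.957). After Atp2b1, those for Gabra5 were Stum and B3galt2 (both 0.994). For Gabrb2, 1 of the 3 closest genes was also among the first 3 over 7 arrays. It was Cacnb4, a calcium channel beta subunit, which had r 0.979 with Gabrb2 over 8 arrays and 0.968 over 7, followed by Sh3bp5 (0.966) and Bach1 (0.963). Pcnx4 (0.989), Cabin1 (0.988) and Atp5pb (0.986) led for Gabrd, and 2 of the 3 were also among the first 3 over 7 arrays. All 3 shared with Gabrd a lowest value on low-dose RE replicate 2, an array that both rankings keep.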

How the data were processed

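Per the labels and the series' design text, the authors used Transcriptome Analysis Console 4.0.1 with RMA, a multichip average, to normalize the Clariom S arrays, and deposited log2 values. The table had 22206 rows and 8 arrays, with 19572 rows named by 1 gene symbol and 2634 unnamed here. Values ran from 2.76 to 19.79, 1359 of them above 16, the limit of a 16-bit scanner, so the deposited scale may be stretched. They come with no depth or detection call, so precision rests on how many arrays there are.

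From these values, group means of all 8 arrays were fitted with limma 3.58.1 (R 4.3.3, lmFit and eBayes, two-sided, 4 residual and 4.30 prior degrees of freedom). P-values were adjusted by Benjamini-Hochberg across the whole table. The 6 comparisons were the pairs of the 4 groups. In them the lowest adjusted p of any of the 7 genes was 0.946. Where an array was left out, its lone partner was assumed to vary like the other groups. The fit was tested on simulated data. Promoter windows come from RefSeq. Values are from all 8 arrays unless another fit is named.

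All 7 genes were named whatever their values, as were all other subunits. Genes of each pathway list were named where past the study's threshold, or else the 2 with the largest TST difference, and a few more beside them (Gad1, Gphn) after their values were seen. The genes, lists and rules were chosen with earlier results of these data known. Alternatives were a replicate block, only the groups compared, a trended robust prior, no dim rows, quantile normalization, the methods' one-way analysis of variance and leaving out arrays. After seeing the data, the ranking over 7 arrays and list counts without the diverging arrays were added.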

Additional observations from a re-analysis of the deposited data

How the results depend on the processing

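None of the 7 genes passed the study's threshold in any of the 6 comparisons with all 8 arrays, and none did with the replicate block, only the groups compared, the trended robust prior, the dimmest 25% of rows left out, quantile normalization or the one-way analysis of variance. Of these settings, only quantile normalization changes a difference of group means, so the others could not turn a direction. After quantile normalization 41 of 42 values kept their direction. The exception was Gabrb1 with low-dose RE against unstressed water, at 0.0034 after quantile normalization against -0.02. The replicate numbers share no stated litter or batch, same-numbered deviations correlated between -0.293 and 0.169 across rows, and the block left the count at 0 of 7 for every comparison (497 rows against 567 passed for TST).

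Over the fits that left out arrays, 48 of 378 values turned direction. The 378 include comparisons whose groups lost no array, where the direction could not change. The share that turned is therefore understated. Of the 19 values past the threshold in these fits, 2 had also turned, Gabra5 for TST and Gabra2 for high dose against water with TST. For TST, low dose and high dose against water with TST, 5 genes had their largest differences where water with TST kept replicate 2 alone. They were Gabra2, Gabra3, Gabra4, Gabra5 and Gabrb1. Without low-dose RE replicate 1, Gabrd was at -1.265 for low dose against unstressed water and at -1.32 against water with TST. For TST the values ran from -1.16 to 0.28 for Gabra2, -2.795 to 0.295 for Gabra4, -2.86 to 0.68 for Gabra5, -1.525 to 0.245 for Gabrb1 and -0.23 to 0.34 for Gabrd. For low dose against water with TST they ran from -0.56 to 0.88 for Gabra2, -0.19 to 2.55 for Gabra3, -0.105 to 2.985 for Gabra4, -0.31 to 3.23 for Gabra5 and -0.265 to 1.505 for Gabrb1. For high dose they ran from -0.65 to 0.79, -0.145 to 2.595, -0.085 to 3.005, -0.46 to 3.08 and -0.09 to 1.68 for the same 5 genes. The ends of the RE ranges are the fits without one or the other array of water with TST. Between doses they ran from -0.23 to 0.05 for Gabra2, -0.01 to 0.10 for Gabra3, -0.425 to 0.465 for Gabra4 and -0.43 to 0.79 for Gabrd. Against unstressed water they ran with the low dose from -0.48 to 0.08 for Gabra3, -0.255 to 0.635 for Gabra4, -0.175 to 0.135 for Gabrb1 and -0.21 to 0.23 for Gabrb2, and with the high dose from -0.435 to 0.125 for Gabra3, -0.025 to 0.445 for Gabra4 and -0.37 to 0.07 for Gabrb2. The cause was not tested. Each gene had 1 row, so no other row could be tried. With 2 arrays a group, differences of the size of these ranges were not resolved.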

Other observations

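With water with TST replicate 2 left out, some genes around the receptor that had not passed with all 8 arrays passed the study's threshold. They were chosen after their values were seen. The shares of all rows past the threshold in such fits are given above with the TST, low-dose and high-dose comparisons. The glycine receptor gene Glra1 was lower with TST (-1.73, SE 0.409) and higher with the low dose (1.68, SE 0.409) and the high dose (2.04, SE 0.409) against the remaining array of water with TST, which all 3 comparisons share. Slc32a1, the vesicular transporter that loads GABA, was lower with TST (-0.82, SE 0.350), and so was Aldh5a1, an enzyme of GABA breakdown (-0.76, SE 0.322). Tspo, the mitochondrial protein linked to neurosteroid synthesis, was higher with TST (1.08, SE 0.360) and lower with the low dose (-1.145, SE 0.360) and the high dose (-0.96, SE 0.360). All values of Tspo, from 4.50 to 6.05, were below the array medians of 7.45 to 7.51, with no detection call. In the fit that also left out the unstressed array rich in cerebellar markers, Slc32a1 was at -1.19 (SE 0.331) and Glra1 at -1.39 (SE 0.439) for TST, while Aldh5a1 (-0.79, SE 0.400) and Tspo (0.76, SE 0.375) did not pass. In that fit striatal projection neuron markers were lower with TST in 11 of 12 genes (median -1.355) and hypothalamic markers in 13 of 14. Of all named genes, 9694 of 19505 were lower there. The part of these markers in the values of this paragraph was not tested. Each of these values rests on the single array water with TST replicate 1.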
